A study of Mus musculus with 4 samples.

Results

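The 48 genes described here are markers of a cell's passage through S phase, in which DNA is copied, and through G2 and mitosis, in which the cell prepares to divide and divides. They were chosen by symbol from the 31053 genes of the deposited table, 22 as S phase genes, 25 as G2/M genes, and Stmn1, a tubulin-binding protein that is abundant in dividing cells, with no phase assigned. All 48 were found. They were measured by droplet single-cell RNA sequencing in the inguinal lymph nodes that drain B16F10 tumours, a transplantable mouse melanoma, implanted on both sides in the thigh of C57BL/6J mice. Per the labels, 2 mice were treated with a combination of drugs. From day 9 their drinking water held 2 mg/ml of indoximod, which acts against the tryptophan-degrading IDO pathway, and ibrutinib, which blocks the kinase BTK, was injected into the peritoneum each day at 350 ug. A dose of 150 mg/kg of the alkylating agent cyclophosphamide followed on day 10. The 2 control mice bore the same tumours and were left without treatment, and all nodes were taken 2 days after the cyclophosphamide dose. The table holds 4 libraries, numbered 1 to 4 by the suffix of their cell barcodes, and no file or label ties a suffix to a mouse or to a group. Treated and control mice were therefore not compared, values are given library by library or over the 4 libraries summed, and no test across libraries was made.

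Resting lymphocytes keep this machinery at low levels and build it once an antigen or cytokine signal drives them into the cycle. The S phase genes include the MCM helicase that opens DNA, the sliding clamp PCNA and the enzymes that make DNA's building blocks, and they are largely switched on by E2F factors. The G2/M genes encode cyclins, the kinase CDK1, the spindle and the machinery that destroys cyclins at the end of mitosis, and they are turned on later by the MuvB complex with B-MYB and FOXM1. In a lymph node, germinal centre B cells are known as the fastest dividing B cells, while regulatory T cells are known to hold a larger cycling fraction than other resting CD4 T cells.

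Counts were unique molecular identifiers (UMIs), each standing for 1 captured RNA molecule, and cells were kept if at least 300 genes were detected and at most 10% of their UMIs were mitochondrial. This left 26096 of 30824 barcodes, 5667, 5758, 6335 and 8336 in libraries 1 to 4, with a median of 5229 to 5558 UMIs per cell by library. Classes were gated on marker genes and never on the 48 members: 9520 cells fell in the B lineage and 14139 in the T lineage. Summed Cd3d, Cd3e and Cd3g, the CD3 chains of the T cell receptor complex that the T lineage gate uses, stood at 37.3 CPM (UMIs per 1000000 UMIs of the cells summed) in B lineage cells and at 2271 CPM in T lineage cells, which describes the gates and is no finding. Depth differed between the lineages, with a median of 3859.5 UMIs per B lineage cell and 6274 per T lineage cell. The libraries stood apart in one class: cells gated as germinal centre B-like numbered 164, 167, 10 and 18 in libraries 1 to 4, so shares and members of the B lineage are given by library and also with those cells set apart. Libraries shared 86 barcode sequences, found in 172 barcodes.

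Most node cells carried few members, and a small set carried very many. In the B lineage 2363 of 9520 cells had none, 5110 had 1 or 2, 1763 had 3 to 9, and 284 had 10 or more. In the T lineage 2196 of 14139 cells had none, 7474 had 1 or 2, 4115 had 3 to 9, and 354 had 10 or more. The number of cells fell steeply up to 9 members and then levelled off, with cells spread over the whole range up to 48 members. The threshold of 3 came with the choice of genes, and that of 10 was added after this distribution was seen.

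The cells with 10 or more members made up 2.98% of the B lineage and held 80.6% of its member UMIs, and in the T lineage 2.504% of cells held 74.0%, with the libraries summed. The B lineage value rests on libraries 1 and 2. By library, cells with 10 or more members held 87.2%, 90.5%, 36.7% and 28.2% of the S and G2/M UMIs of the B lineage, and 71.5%, 71.0%, 77.3% and 73.5% of those of the T lineage. Members took 1.24% of all UMIs in B lineage cells with 10 or more members, against 0.0695% in those with 3 to 9. In T lineage cells the same shares were 1.09% and 0.0568%. Cells with 10 or more members were also the deepest, with a median of 15926 UMIs against 3454 in B lineage cells with none, and 18561.5 against 5202 in T lineage cells. The part of depth in the number of members detected was not tested for these cells. The doublet caller Scrublet marked 0.704% of the B lineage and 1.69% of the T lineage cells with 10 or more members. On either side of the threshold of 3, B lineage cells with exactly 3 members numbered 1009 and had 0.0639% of their UMIs in members. Those with exactly 2 numbered 2008 and had 0.0503%. In T lineage cells the values were 2165 cells and 0.0481% against 3568 cells and 0.0345%. All these groups were chosen by the number of members detected, so their shares of UMIs in members are a description and do not test a threshold.

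**Figure D1:**
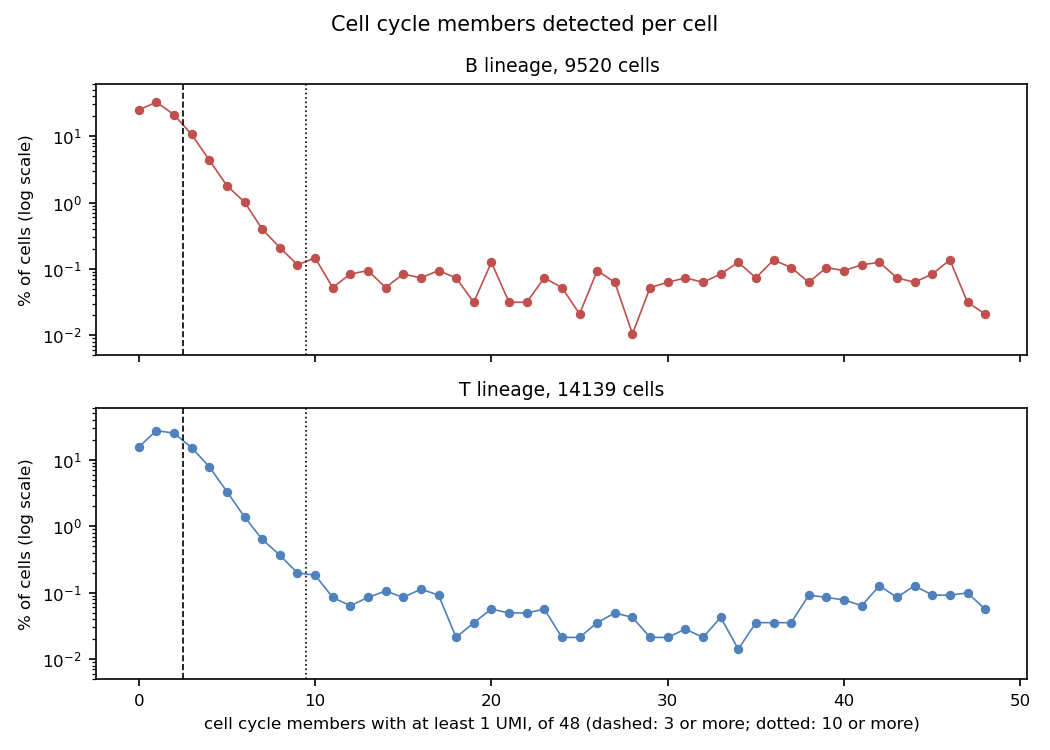
Share of B lineage cells (top) and T lineage cells (bottom), on a log scale, by the number of the 48 members with at least 1 UMI. In both panels the share falls steeply to 9 members and then runs on as a low plateau up to 48, and the dashed and dotted lines mark the thresholds of 3 and of 10 members.

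G2/M genes were concentrated in the cells that carried many other members, and S genes were spread more widely. For each member, the share of its UMIs found in cells with 9 or more of the other 47 members was taken over all kept cells. This share had a median of 94.7% over the 25 G2/M genes and of 64.4% over the 22 S genes, with Stmn1 at 83.0%. At least 90% of the UMIs lay in such cells for 18 G2/M genes and 4 S genes. Cells with many members are deeper, so the shares rank members and do not measure a rate of division.

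Among the G2/M genes, the mitotic cyclins and their kinase were tightly confined. Ccna2 (cyclin A2) had 98.4% of its UMIs in cells with 9 or more other members, Ccnb2 (cyclin B2) 96.4%, Ccnb1 (cyclin B1) 92.6% and Cdk1, the kinase they activate, 94.9%. The mitotic kinase genes Plk1, Aurkb and Aurka had 94.7%, 89.3% and 81.1%. The spindle checkpoint kinase gene Bub1 was the rarest G2/M member, found in 1.15% of kept cells, and had 96.7% of its UMIs in these cells. Hmmr, a spindle-associated hyaluronan receptor, was the most confined member of all with 98.8%, and Birc5 (survivin, of the chromosomal passenger complex) and Mki67, the proliferation antigen Ki-67, had 97.3% and 96.8%. Of the genes that drive cyclin destruction, the ubiquitin-conjugating enzyme gene Ube2c had 96.1% and the APC activator gene Cdc20 84.4%.

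Kif23 and Cenpa departed from the other 23 G2/M genes, which ran from 74.8% (Tacc3, a spindle protein) upward. Kif23, a kinesin of the central spindle that is needed to split the daughter cells, had 45.9% of its UMIs in cells with 9 or more other members. Cenpa, the histone H3 variant of centromeres, had 47.4%. Their remaining UMIs lay in different cells. Among cells in which no other member was detected, Kif23 was found in 0.714% of the B lineage and 8.77% of the T lineage, whereas Cenpa was found in 12.8% of the B lineage and 10.7% of the T lineage. Within the T lineage Kif23 was most frequent in CD8 T-like cells. It was detected in 17.3%, 16.6%, 16.5% and 15.5% of them in libraries 1 to 4, against 7.95%, 5.17%, 5.62% and 7.28% of CD4 T-like cells. In other B-like cells, the B lineage without germinal centre B-like and plasma-like cells, the shares were 0.994%, 1.42%, 1.29% and 1.70%. The CD8 T-like shares did not overlap the CD4 T-like shares, nor these the B-like shares, and the median depths of the classes, 7152, 5792 and 3814 UMIs, had the same order. So had the levels in CPM in all 4 libraries, with 27.4, 30.6, 26.1 and 26.5 CPM in CD8 T-like cells, 20.4, 10.6, 15.4 and 14.3 CPM in CD4 T-like cells, and 3.12, 5.35, 4.12 and 4.46 CPM in other B-like cells. Neither Kif23 nor Cenpa overlaps another gene in the GENCODE vM21 annotation, in which 27 of the 48 members overlap none.

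The shares of the S genes ran from 97.3% down to 38.4%. Pclaf, which encodes a small PCNA-binding factor of the replication fork, had the highest, with 97.3% of its UMIs in cells with 9 or more other members. Cdc6, which loads the MCM helicase onto replication origins, had 95.04%, and Rrm2, the cycle-regulated subunit of ribonucleotide reductase, 94.9%. Rrm1, the other subunit of the same enzyme, had 59.2% and was found in 8.74% of kept cells, against 2.28% for Rrm2. The 6 MCM genes, Mcm2 to Mcm7, lay between 39.5% (Mcm4) and 61.1% (Mcm5). Pcna had the lowest share of all 48 at 38.4%, followed by Fen1, the flap endonuclease of lagging-strand synthesis, at 38.9%. Dut, which removes dUTP from the nucleotide pool, was the most widely detected member, in 24.2% of kept cells, with 52.6% of its UMIs in cells with many members.

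Hist1h1b, a linker histone gene made mainly in S phase, had 30546 UMIs, and its spread over cells differed between the lineages. Among cells with no other member it was found in 8.91% of the B lineage, against 1.22% of the deeper T lineage. In these cells it stood at 36.4 CPM and 2.46 CPM. Of all its UMIs, 87.7% in the B lineage and 98.1% in the T lineage lay in cells with 9 or more other members. In other B-like cells it was found in 9.59%, 10.2%, 11.2% and 10.7% of cells in libraries 1 to 4, in CD8 T-like cells in 2.64%, 3.42%, 1.73% and 1.497%, and in CD4 T-like cells in 4.05%, 4.23%, 2.30% and 1.97%. Its level summed over each class, cells with many members included, did not follow this order. It was 57.6, 75.9, 66.3 and 53.1 CPM in other B-like cells, 75.9, 88.0, 48.8 and 55.9 CPM in CD8 T-like cells, and 166.8, 108.8, 119.9 and 95.1 CPM in CD4 T-like cells, so that the other B-like and CD8 T-like values overlapped and the CD4 T-like values lay above both. Over the whole lineages it was 396.3, 547.7, 91.4 and 52.9 CPM in the B lineage and 146.3, 138.6, 164.3 and 143.4 CPM in the T lineage.

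Promoters are shown because S and G2/M genes, though found in the same cells, are known to be switched on through different promoter motifs. They are those of the 2 G2/M and the 2 S genes with the largest share of UMIs in cells with 3 or more other members, among the genes with a window in the sequence table. Windows of 250 bases before to 50 after the start site came from RefSeq (GRCm38.p6) and were matched by symbol for 22 of 25 G2/M genes and 18 of 22 S genes. Both strands were searched for the cell cycle homology region (CHR, TTTGAA or TTCGAA), at which the MuvB complex is known to bind, for the CCAAT box (CCAAT), to which NF-Y binds, and for an E2F site (TTTGGCGC, TTTCGCGC, TTTCCCGC or TTTGCCGC). The letters of these motifs are in capitals below, 5′ to 3′ along the gene's strand, with no overlap between motifs.
Hmmr, chr11:40733388-40733687, minus strand: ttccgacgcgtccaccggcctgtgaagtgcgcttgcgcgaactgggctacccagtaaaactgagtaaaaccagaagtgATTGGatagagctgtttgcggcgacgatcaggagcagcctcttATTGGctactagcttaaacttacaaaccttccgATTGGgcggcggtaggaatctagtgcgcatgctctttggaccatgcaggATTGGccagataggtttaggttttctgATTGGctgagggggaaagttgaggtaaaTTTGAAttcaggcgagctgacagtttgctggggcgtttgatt
Birc5, chr11:117848987-117849286, plus strand: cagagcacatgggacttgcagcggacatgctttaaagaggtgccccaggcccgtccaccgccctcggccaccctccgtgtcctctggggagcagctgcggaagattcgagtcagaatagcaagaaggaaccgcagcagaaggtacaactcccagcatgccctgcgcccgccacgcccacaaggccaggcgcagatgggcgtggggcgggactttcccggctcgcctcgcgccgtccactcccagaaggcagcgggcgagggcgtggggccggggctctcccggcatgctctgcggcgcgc
Pclaf, chr9:65890073-65890372, plus strand: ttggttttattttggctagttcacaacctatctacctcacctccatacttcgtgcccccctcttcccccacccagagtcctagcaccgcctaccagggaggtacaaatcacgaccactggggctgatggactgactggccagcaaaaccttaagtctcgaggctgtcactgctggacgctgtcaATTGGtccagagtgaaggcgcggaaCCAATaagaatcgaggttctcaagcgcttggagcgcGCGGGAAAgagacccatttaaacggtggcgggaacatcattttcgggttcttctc
Cdc6, chr11:98907901-98908200, plus strand: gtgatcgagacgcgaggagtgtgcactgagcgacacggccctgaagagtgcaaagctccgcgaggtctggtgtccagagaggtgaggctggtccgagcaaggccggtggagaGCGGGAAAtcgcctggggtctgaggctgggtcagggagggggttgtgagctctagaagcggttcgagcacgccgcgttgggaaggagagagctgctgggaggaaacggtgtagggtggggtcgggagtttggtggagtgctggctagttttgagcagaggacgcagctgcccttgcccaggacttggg

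Hmmr held a CHR at position 9 after the start and 5 CCAAT boxes, at -172, -129, -96, -47 and -20. Birc5 held none of the motifs in its window. Pclaf held CCAAT boxes at -66 and -41 and an E2F match at -5, and Cdc6 held an E2F match at -138. Positions are counted from the RefSeq start. The whole Cdc6 window lies after the gene start of the GENCODE vM21 annotation, chr11:98907801, so bases before that start were not searched. Over the members, a CHR was found in 17 of 22 G2/M windows and 4 of 18 S windows, against 19.2% of all 32851 windows in the table. An E2F match was found in 1 of 22 G2/M windows and 9 of 18 S windows, against 2.26% of all windows. CCAAT boxes were common in both sets, in 19 of 22 and 13 of 18 windows against 37.4% of all, and 17 G2/M windows but 3 S windows held a CHR and a CCAAT box together, against 7.52% of all. A match is a run of letters and not a measured binding site, and the window holds only part of each promoter.

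Within the cells with 10 or more members, S and G2/M genes were mostly closer to their own phase. Each member's UMIs per cell, as a share of the cell's UMIs, were ranked against the sum of the other S members and against the sum of the other G2/M members over 284 B lineage and 354 T lineage cells, and these rank correlations are given as a description, since the values share a cell's depth. All 25 G2/M genes were closer to the G2/M sum in both lineages. All 22 S genes were closer to the S sum in the B lineage, and 21 in the T lineage, the exception being Hist1h1b. In B lineage cells Spearman's rho for Ccnb1 was 0.0011 with the S sum and 0.69 with the G2/M sum, and for Mcm6 it was 0.37 and -0.36. In T lineage cells the values were 0.37 and 0.72 for Ccnb1 and 0.36 and -0.12 for Mcm6. There all 25 G2/M genes had a rho above 0 with the S sum, from 0.32 to 0.73, against 21 of 25 in the B lineage, from -0.12 to 0.65. Top2a, the topoisomerase that untangles copied DNA, had 0.65 and 0.68 in the B lineage and 0.73 and 0.81 in the T lineage. In T lineage cells Hist1h1b had a rho of 0.55 with the S sum and 0.77 with the G2/M sum, against 0.58 and 0.51 in B lineage cells.

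G2/M UMIs, as a percentage of a cell's S and G2/M UMIs together, had a median of 37.4% in B lineage cells and 29.6% in T lineage cells with 10 or more members. By library the medians were 37.5%, 40.8%, 23.3% and 35.3% in the B lineage and 33.1%, 39.3%, 24.0% and 27.5% in the T lineage. Libraries 3 and 4 rest on 11 and 19 B lineage cells. The medians of the lineages overlapped between libraries. Cells at 75% or more, those with mostly G2/M UMIs, were 46 of 284 in the B lineage and 35 of 354 in the T lineage, and cells at 25% or less, those with mostly S UMIs, were 99 and 162.

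**Figure D2:**
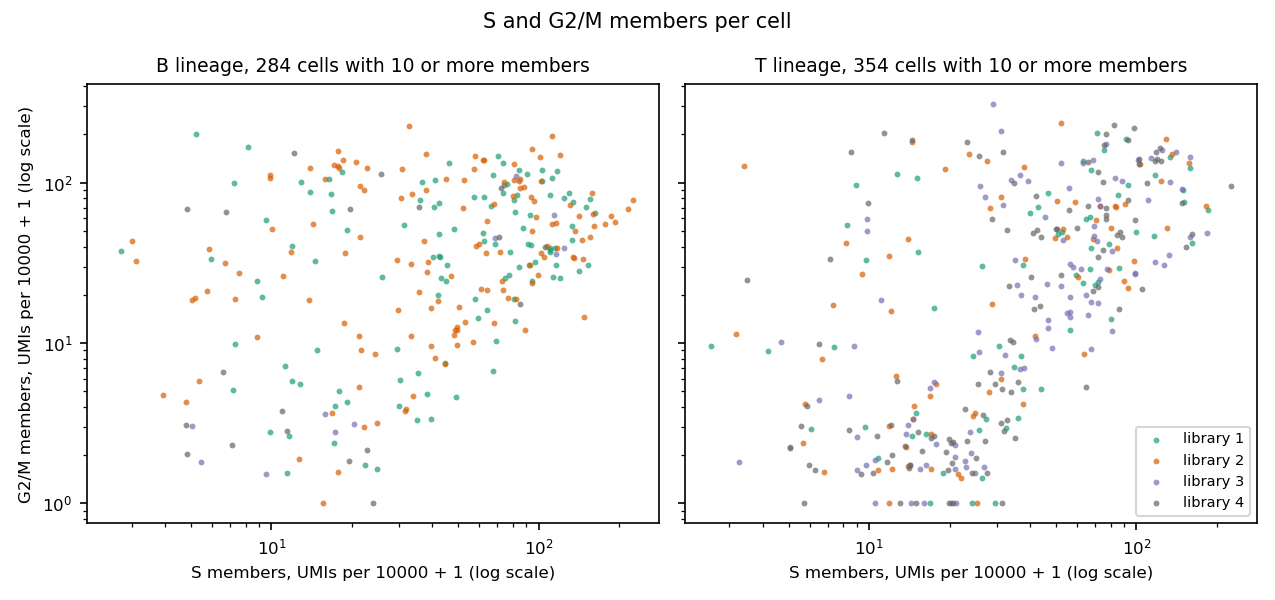
Each point is a cell with 10 or more members, placed by its UMIs of S members (x) and of G2/M members (y) per 10000 UMIs, plus 1, on log scales, in the B lineage (left, 284 cells) and the T lineage (right, 354 cells), coloured by library. In the T lineage panel a dense group lies at the bottom, with S members and few G2/M UMIs, where 162 of 354 cells have 25% or less of these UMIs in G2/M genes.

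The share of cells with 3 or more members was lower in the B lineage than in the T lineage in all 4 libraries. It was 25.5%, 24.6%, 19.2% and 18.04% of B lineage cells in libraries 1 to 4, and 34.9%, 32.7%, 30.2% and 29.8% of T lineage cells. The exact 95% intervals, which cover counting error only, did not overlap within any library. T lineage cells were also the deeper ones. When each cell was thinned to 1500 UMIs, leaving out 117 B lineage and 47 T lineage cells with fewer, the shares were 7.15%, 8.01%, 2.78% and 1.81% of B lineage cells, against 3.44%, 3.22%, 3.89% and 3.37% of T lineage cells. At 1500 UMIs the log2 ratios of the B over the T lineage share were 1.06, 1.31, -0.48 and -0.89 in libraries 1 to 4. At 3000 UMIs they were 0.53, 0.87, 0.10 and -0.18, so that libraries 1 and 2 were above 0 and library 4 below 0 at both depths, while library 3 changed sign.

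Cells with 10 or more members were 115, 139, 11 and 19 B lineage cells, or 5.28%, 6.51%, 0.505% and 0.628%, and 66, 70, 105 and 113 T lineage cells, or 2.20%, 2.25%, 2.91% and 2.56%. The B lineage share was above that of the T lineage in libraries 1 and 2 and below it in libraries 3 and 4. Germinal centre B-like cells made up 100 of the 115 and 122 of the 139 B lineage cells in libraries 1 and 2, and 2 of the 11 and 4 of the 19 in libraries 3 and 4. With germinal centre B-like and plasma-like cells left out, a step added after the values were seen, the B lineage share was 0.646%, 0.865%, 0.415% and 0.499%, below the T lineage in all 4 libraries.

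**Figure D3:**
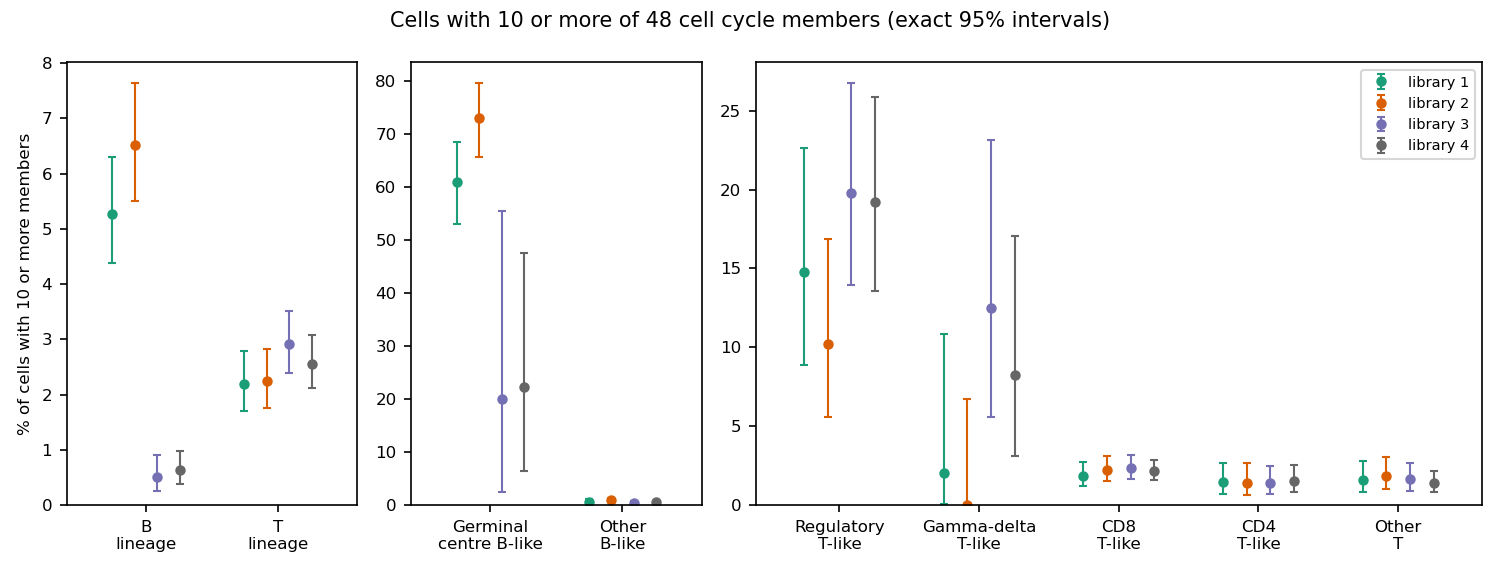
Percentage of cells with 10 or more members in the B and T lineages (left), in the B lineage classes (middle) and in the T lineage classes (right), 1 point per library with its exact 95% interval. The axes differ in scale: germinal centre B-like cells reach 73.1%, regulatory T-like cells run between 10.2% and 19.8%, and the classes of other B-like, CD4 T-like, CD8 T-like and other T cells have 2.33% or less.

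Germinal centre B-like cells, gated on the summed UMIs of a marker list that includes Mef2b, S1pr2, Rgs13, Gcsam and Bcl6, had 10 or more members in 61.0%, 73.1%, 20% and 22.2% of cells in libraries 1 to 4. The intervals for libraries 3 and 4, with 10 and 18 cells, ran from 2.52% to 55.6% and from 6.41% to 47.6%. In other B-like cells the shares were those given above, 0.415% to 0.865%. In such sums over a class, more dividing cells and more RNA per dividing cell cannot be told apart. Calls, of members and of all other genes alike, needed a CPM ratio of 1.5-fold or more in 1 direction in each library with at least 10 counts, and 3 or more such libraries, which is a rule and not a test. Of the 46 members that could be judged, 38 were higher in germinal centre B-like than in other B-like cells and none lower, against 7.36% of 10938 genes called higher and 6.35% lower. All 24 judged G2/M genes were called, 13 of 21 S genes, and Stmn1, and the median log2 ratio was 4.77 over the members and 0.02 over all genes. In libraries 3 and 4 these calls rest on few germinal centre B-like cells. In library 3, 2 cells with 10 or more members held 692 of the class's 719 S UMIs and 333 of its 355 G2/M UMIs. In library 4, 4 such cells held 68 of 101 S UMIs and 345 of 354 G2/M UMIs.

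Mki67 stood at 625.1, 740.6, 670.6 and 131.0 CPM in germinal centre B-like cells and at 10.6, 10.2, 7.93 and 6.00 CPM in other B-like cells, a log2 ratio of 6.33 over the summed libraries (95% counting interval 6.17 to 6.49). Hmmr had the largest ratio, with 106.8, 154.8, 68.4 and 62.0 CPM in germinal centre B-like cells against 1.34, 2.02, 1.54 and 0.804 CPM, a log2 ratio of 6.55. Ccnb2 followed at 6.47, Tpx2, which builds the spindle, at 6.17, and Ube2c at 6.15. For these genes every germinal centre B-like value lay above every other B-like value. Cdk1 had a log2 ratio of 5.61, Ccnb1 5.73, Top2a 5.43 and Stmn1 5.01, with 906.7, 1028, 561.1 and 289.5 CPM for Stmn1 in germinal centre B-like cells and 32.7, 40.2, 25.2 and 22.9 CPM in other B-like cells.

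The S genes differed less between the B classes. Pcna was called, at 167.6, 119.6, 171.1 and 55.2 CPM in germinal centre B-like cells against 37.4, 27.1, 24.8 and 24.4 CPM in other B-like cells, a log2 ratio of 2.34. Mcm5 was not called. It stood at 142.0, 151.1, 143.7 and 13.8 CPM in germinal centre B-like cells and at 14.8, 17.005, 16.6 and 12.9 CPM in other B-like cells, so that libraries 1 to 3 were high and library 4, with 2 Mcm5 UMIs in 18 cells, was not. All 8 S genes that were judged and not called failed in library 4, where Rrm2 and Ccne2 had no UMI in these cells, and without library 4 the rule called 45 members. Library 4's germinal centre B-like cells had 77.8% of their S and G2/M UMIs in G2/M genes, against 46.1%, 50.6% and 33.1% in libraries 1 to 3. The values of libraries 3 and 4 rest mostly on the 2 and 4 cells with 10 or more members, against 100 and 122 such cells in libraries 1 and 2. Germinal centre B-like cells had a median of 11734 UMIs, against 3814 in other B-like cells, and at 1500 UMIs per cell 11 of 28 judged members were called. The share of all genes called is not given at this depth or without library 4, so these counts have no background beside them.

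Set against the whole T lineage, the members in B lineage cells changed direction between libraries. By the fold rule none of the 48 members was called in either direction, against 27.1% of 12878 genes. The number of members with a ratio above 1 was 46, 48, 2 and 2 in libraries 1 to 4, and their median log2 ratio was 1.28, 1.69, -1.60 and -1.47. Mki67 stood at 152.7, 188.7, 17.8 and 7.29 CPM in B lineage cells and at 41.9, 45.8, 64.1 and 49.4 CPM in T lineage cells. Aurkb, whose ratio over the summed libraries was the largest, stood at 22.4, 29.5, 3.86 and 4.04 CPM in B lineage cells and at 4.52, 6.37, 6.88 and 7.10 CPM in T lineage cells. Pclaf stood at 176.6, 220.2, 18.9 and 10.7 CPM in B lineage cells against 46.1, 42.7, 57.1 and 42.3 CPM in T lineage cells. For these 3 genes the B lineage values of libraries 1 and 2 lay above all T lineage values and those of libraries 3 and 4 below all of them.

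The swing was widest for G2/M genes, with medians of 1.54, 1.97, -2.17 and -2.004 on the log2 scale, and narrower for S genes, with 0.98, 1.34, -0.89 and -0.87. Ccnb1 spanned 2.19 in library 2 to -3.12 in library 3, Cdk1 2.06 to -2.46, Top2a 1.62 to -2.40 and Stmn1 1.58 to -1.91. Pcna spanned 0.53 to -0.64, with 65.2, 49.6, 27.0 and 24.8 CPM in B lineage cells against 45.3, 39.5, 41.9 and 37.9 CPM in T lineage cells, and Mcm5 1.32 to -0.75. Cenpe, a kinetochore motor, spanned 2.12 to -1.67, Cdc20 2.12 to -1.60, Cdca3, which promotes entry into mitosis, 1.96 to -2.32, and Bub1b, a checkpoint protein, 1.76 to -1.14. Cenpa and Fen1 alone had ratios above 0 in all 4 libraries, 0.80, 0.97, 0.06 and 0.17 for Cenpa and 0.97, 1.20, 0.15 and 0.20 for Fen1. The median of all genes in this comparison was 0.13, above the Cenpa value of library 3, and fell to 0.03 with trimmed-mean (TMM) scaling. Without germinal centre B-like and plasma-like cells, 32 of the 48 members were called lower in the B lineage and none higher, with 29.5% of all genes called in either direction. Mki67 then had a log2 ratio of -2.60 and Cdca3 of -2.11.

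**Figure D4:**
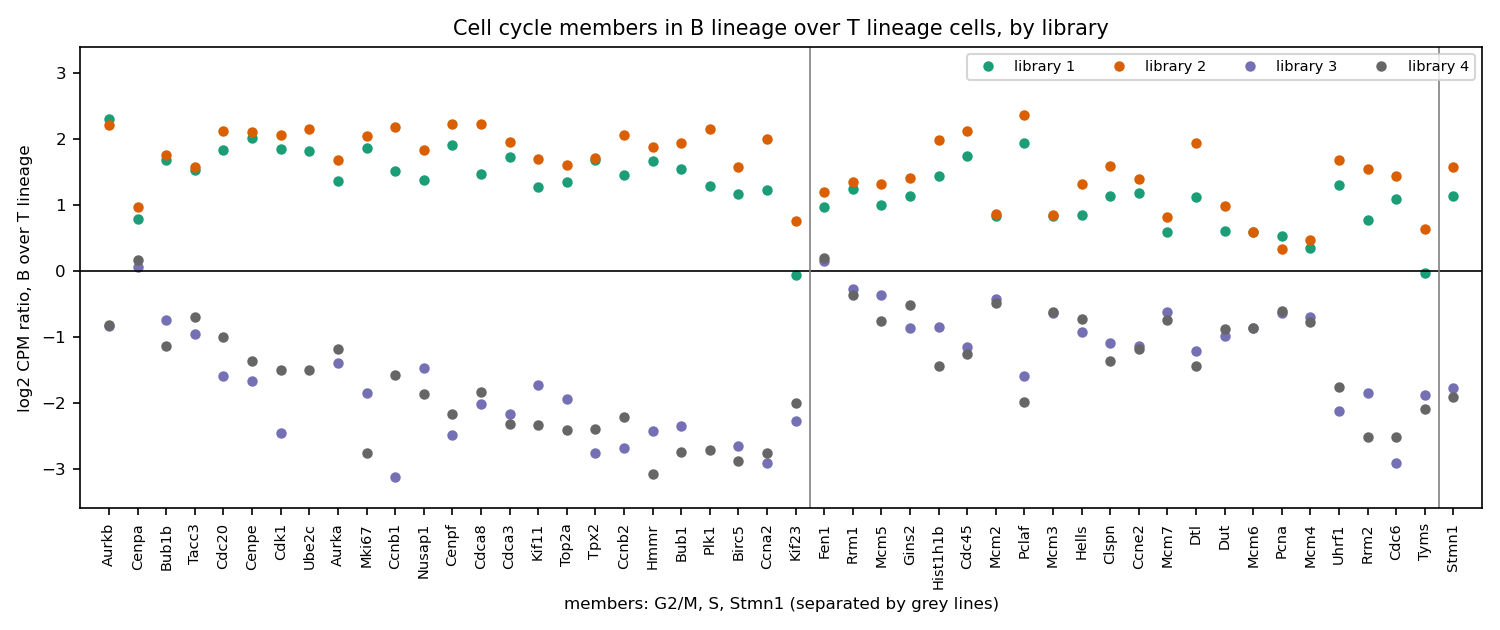
log2 ratio of CPM in B lineage over T lineage cells for each of the 48 members, 1 point per library, with G2/M genes on the left, S genes in the middle and Stmn1 on the right. Points of libraries 1 and 2 lie above 0 for 46 and 48 members, and those of libraries 3 and 4 lie below 0 for all but 2 members, Cenpa and Fen1.

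In the T lineage, the highest share of cells with many members was in regulatory T-like cells. They were gated on at least 1 UMI of Foxp3 and on no other marker within the T lineage. CD8 marker UMIs, which the CD4 T-like gate excludes, were found in 21.5% of them, and in 32.6% of those with 10 or more members. Of the 60 cells with 10 or more members among other T cells, which no other T gate took, 45% had CD4 and 55% CD8 marker UMIs. A deeper cell more often shows a UMI of Foxp3 or of a CD8 marker, so both gates depend on depth. The part of the gates in the comparison below was not tested. Of regulatory T-like cells, 14.8%, 10.2%, 19.8% and 19.2% had 10 or more members in libraries 1 to 4 (17, 13, 32 and 33 cells), against 1.45%, 1.41%, 1.40% and 1.503% of CD4 T-like cells. The exact intervals did not overlap in any library. By the fold rule all 48 members were called higher in regulatory T-like cells, against 10.1% of 10165 genes called higher and 1.92% lower, and the median log2 ratio was 3.22 over the members and 0.22 over all genes. With TMM scaling, which puts that median of all genes at -0.06, 47 members were called, and the share of all genes called is not given.

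Mki67 stood at 194.2, 328.8, 582.2 and 491.8 CPM in regulatory T-like cells and at 45.4, 21.5, 51.6 and 16.1 CPM in CD4 T-like cells, a log2 ratio of 3.69 (3.57 to 3.82) and the largest of the 48. Every regulatory T-like value lay above every CD4 T-like value. Hmmr had a log2 ratio of 3.65, Bub1b 3.58, Rrm2 3.57, Ccnb2 3.53, Cenpf, a kinetochore protein, 3.52 and Aurkb 3.52. Cdk1 had 3.502, Ccnb1 3.23, Top2a 3.21, Mcm5 2.58 and Stmn1 2.40. Pcna had the smallest ratio, 1.37, with 84.9, 72.9, 108.6 and 101.6 CPM in regulatory T-like cells against 39.4, 42.8, 36.1 and 30.4 CPM in CD4 T-like cells. The median log2 ratio of the G2/M genes was 1.94, 3.33, 3.13 and 4.25 in libraries 1 to 4, and that of the S genes was 2.47, 2.00, 2.71 and 2.69. Depth was similar in these classes as a whole, with medians of 6268.5 and 5792 UMIs. Their cells with 10 or more members had medians of 21542 and 15390 UMIs. At 1500 UMIs per cell only 29 members could be judged, of which 17 were called. The share of all genes called at this depth is not given, so that count has no background beside it.

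Gamma-delta T-like cells, gated on Trdc, were few, with 49, 53, 64 and 73 cells, of which 1, 0, 8 and 6 had 10 or more members. The shares were 2.04%, 0%, 12.5% and 8.22%, and the 0 of 53 in library 2 allows up to 6.72% by the exact interval. The intervals of all 4 libraries overlapped. CD8 T-like cells had shares of 1.85%, 2.21%, 2.33% and 2.15%, each above the CD4 T-like share of the same library, with overlapping intervals. They were also deeper, with a median of 7152 UMIs against 5792 in CD4 T-like cells. With cells thinned to 1500 UMIs, 2.92%, 3.42%, 2.75% and 2.80% of CD8 T-like cells had 3 or more members. The CD4 T-like shares were then 3.04%, 2.83%, 2.94% and 2.55%, so the order was reversed in libraries 1 and 3. Being the largest class, CD8 T-like cells supplied 141 of the 354 T lineage cells with 10 or more members, regulatory T-like cells 95, other T cells 60, CD4 T-like cells 43 and gamma-delta T-like cells 15.

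Between CD8 T-like and CD4 T-like cells none of the 48 members was called, against 5.91% of 11330 genes called in either direction. Mki67 stood at 31.3, 39.2, 15.1 and 19.3 CPM in CD8 T-like cells and at 45.4, 21.5, 51.6 and 16.1 CPM in CD4 T-like cells, with overlapping values. Cdk1, Top2a and Ccnb1 likewise changed direction between libraries, with log2 ratios of -1.33 to 0.92, -1.17 to 0.46 and -1.88 to 1.01. Pcna was level, between -0.28 and 0.18. Of the members given in full, Hist1h1b, Cenpe and Stmn1 were below 0 in all 4 libraries, with log2 ratios over the summed libraries of -0.89, -0.73 and -0.63. Uhrf1, which guides maintenance DNA methylation at the fork, Kif23 and Mcm5 were above 0 in all 4, with 0.89, 0.85 and 0.47. The median of all genes was -0.12, and 0.02 with TMM scaling. Cdc6 and Ccne2 (cyclin E2) had 0.95 and 0.80 but rested on few counts, from 0.221 to 3.58 CPM for Cdc6. The rule called 2 members lower, Hist1h1b among them, without library 2, it called Kif23 higher without library 1, and Uhrf1 and Ccne2 higher without library 4. For these leave-outs the share of all genes called is not given.

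Outside the lymphocyte lineages the numbers of cells were small. Of 27 cells gated as cDC1-like, 10 had 10 or more members, a share of 37.0% (exact interval 19.4% to 57.6%), against 5 of 405 mature DC-like cells, or 1.23%, and 0 of 68 plasmacytoid DC-like cells, which allows up to 5.28%. By library 6 of 9, 1 of 5, 2 of 9 and 1 of 4 cDC1-like cells had 10 or more members, and without library 1 the share was 4 of 18, or 22.2% (6.41% to 47.6%). Median depths were 4783, 8577 and 7646 UMIs. Pclaf stood at 126.8 CPM and Cdk1 at 48.3 CPM in cDC1-like cells, and at 2.09 CPM and 0 in plasmacytoid DC-like cells. Library 1 held 236 of the 374 S UMIs and 212 of the 270 G2/M UMIs of the cDC1-like cells. NK-like cells had 10 or more members in 5 of 68 cells and monocyte/macrophage-like cells in 8 of 287. Cells that no gate took held 115 such cells of 1560. Of the 1560, 1026 carried B and T markers together, and Scrublet marked 68.8% of those.

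**Figure D5:**
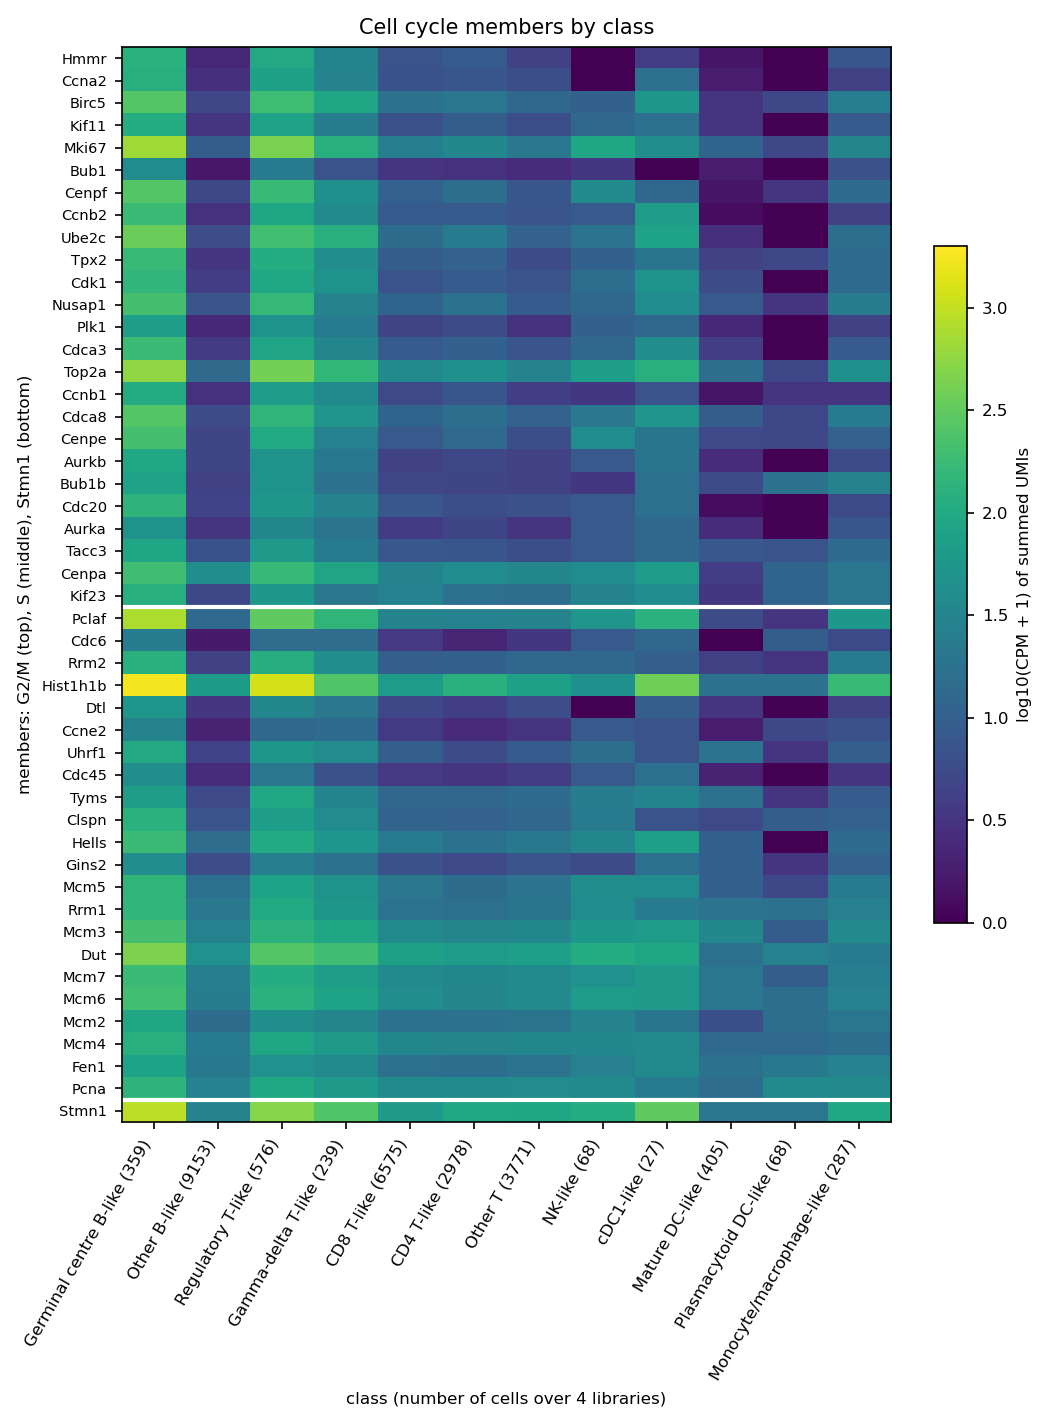
log10(CPM + 1) of each of the 48 members (rows) in 12 marker-gated classes (columns, with their numbers of cells), from UMIs summed over the 4 libraries, with G2/M genes above, S genes in the middle and Stmn1 below. Germinal centre B-like and regulatory T-like columns are bright throughout, with Hist1h1b at 1759 and 1235 CPM, and with Pcna at 141.0 and 95.1 CPM. In the columns of gamma-delta, other, CD8 and CD4 T-like and other B-like cells Pcna lies between 59.3 and 27.9 CPM.

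Cells with 10 or more members were also set side by side between the lineages. These cells were selected by the same 48 genes, so the members' levels in them are a description, and nothing is read from their size. None of the 48 was called, against 12.1% of 9445 genes, and the median log2 ratio of B over T over the summed libraries was 0.12 for the members, 0.31 for G2/M genes and 0.02 for S genes, against -0.06 for all genes. Libraries 1 and 2 supplied 115 and 139 of the 284 B lineage cells, and the libraries went different ways. The medians in libraries 1 to 4 were 0.08, 0.23, -0.23 and -0.66 over the 48 members, 0.27, 0.46, -0.90 and -0.61 over the G2/M genes, and -0.05, 0.11, -0.04 and -0.69 over the S genes. Over the summed libraries the largest ratios were those of Cdc20 at 0.76, with 0.69, 0.86, -1.99 and 0.16 by library, and of Pclaf at 0.68, with 0.57, 0.79, 0.43 and -0.26. The smallest was that of Tyms, thymidylate synthase, at -0.85, with -1.22, -0.65, -0.05 and -1.28 in libraries 1 to 4. For Mki67 the log2 ratio was 0.51, 0.46, 0.10 and -1.23. With 3 or more members as the threshold none was called either, against 20.6% of 11689 genes, and the medians by library, 1.28, 1.65, -1.37 and -1.39, were close to those of the whole lineages.

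Other genes of the cell cycle, 127 in 7 lists, were set against cells in which no member was detected. In cells with 3 or more members 50 of the 112 judged genes were called higher in the B lineage, and 95 of the 125 judged in the T lineage. In B lineage cells with 3 or more members, 407 of 10111 other genes (4.03%) were called higher and 9 (0.0890%) lower than in cells with none, and in T lineage cells 875 of 11222 (7.80%) were higher and 10 (0.0891%) lower. The genes called higher in both lineages numbered 219, which is 53.8% of the B lineage genes and 25.03% of the T lineage genes. Of the mitosis list, 25 of 33 judged genes were higher in the B lineage and 37 of 39 in the T lineage, and of the replication list 10 of 22 and 22 of 24. No gene of the 7 lists was called lower at this threshold. With 10 or more members, 28 of 29 judged mitosis genes and 19 of 21 replication genes were higher in the B lineage, and 37 of 39 and 24 of 24 in the T lineage. At that threshold 10.4% of 9033 genes were called higher in the B lineage and 22.0% of 9825 in the T lineage.

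The genes with the largest ratios in both lineages were nearly absent from cells without members. Esco2, which acetylates cohesin, had 799 UMIs in 2047 B lineage cells with 3 or more members and 2 UMIs in 2363 cells with none, and 664 UMIs in 4469 T lineage cells with 3 or more and none in 2196 cells with 0 members. Hist1h3c, a replication-dependent histone H3 gene, had 897 against 2 UMIs in the B lineage and 1252 against 2 in the T lineage. Pbk, a mitotic kinase, had 265 against 0 and 334 against 0, and the condensin subunit gene Ncapg 523 against 1 and 616 against 2. Ckap2l and Aspm, of the spindle, Cdkn3, a phosphatase that acts on CDKs, and Neil3, a DNA glycosylase, completed the leading 8. Outside the lists, Apol7c, a member of the apolipoprotein L family, followed the same pattern with 44.0 CPM against 1.16 CPM in the B lineage and 27.4 CPM against 0.943 CPM in the T lineage, log2 ratios of 5.11 and 4.73 that ranged over libraries from 4.70 to 7.07 and from 4.13 to 6.21.

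Genes of the upstream control were less uniform in cells with 3 or more members. Of the E2F, RB, DREAM and MYC regulators, 3 of 15 judged genes were higher in B lineage cells with 3 or more members and 8 of 17 in T lineage cells. E2f8, a repressor that is itself an E2F target, had 227 against 0 UMIs in the B lineage and 297 against 1 in the T lineage, and E2f1 stood at 11.7 CPM against 1.63 CPM and at 6.13 CPM against 0.772 CPM. Of the G1 cyclins and kinases, Ccne1 (cyclin E1) was called in both lineages with log2 ratios of 2.01 and 1.80, and Ccnd1 (cyclin D1) with 1.29 and 2.55. Ccnd2 and Ccnd3, the D cyclins with the most UMIs here, were called in neither, with 0.85 and 0.74 in the B lineage and -0.07 and 0.04 in the T lineage. Of the chromatin and tubulin genes, 3 of 13 were higher in the B lineage and 10 of 13 in the T lineage, among them Hmgb2, a DNA-bending protein, at 1280 CPM against 191.5 CPM in the B lineage and 717.4 CPM against 175.2 CPM in the T lineage. Of the other histone genes, 5 of 12 and 10 of 13 were higher. These counts changed with 10 or more members. All 13 chromatin and tubulin genes were then higher in both lineages, and 7 of 12 and 13 of 13 other histone genes. So were 7 of 14 regulators and 4 of 6 G1 genes in the B lineage, and 14 of 17 and 5 of 7 in the T lineage. Of the 419 and 546 B lineage cells with 3 or more members in libraries 3 and 4, 11 and 19 had 10 or more.

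CDK inhibitors and quiescence genes moved both ways, and the downward part appeared at the higher threshold. In cells with 3 or more members 2 of 10 judged genes were called higher in the B lineage and 5 of 12 in the T lineage, among them Wee1, the kinase that restrains CDK1, at log2 ratios of 2.30 and 2.68, and Cdkn1a (p21), with 117 against 9 UMIs in the B lineage and 287 against 2 in the T lineage. In cells with 10 or more members, 10.4% of 9033 genes were called higher and 6.54% lower in the B lineage. In the T lineage 22.0% of 9825 genes were called higher and 5.30% lower. Of the 9 genes of this list judged in the B lineage, 4 were lower (Klf2, Btg1, Btg2 and Cdkn1b) and 2 higher. Of the 11 judged in the T lineage, 3 were lower (Klf2, Btg1 and Btg2) and 5 higher. Klf2, a quiescence factor that also governs exit from the node, stood at 69.8 CPM in B lineage cells with 10 or more members against 745.1 CPM in those with none, and at 299.9 CPM against 590.5 CPM in T lineage cells. Btg1, an antiproliferative gene, stood at 400.3 CPM against 1561 CPM and at 305.4 CPM against 1030 CPM. Cdkn1b (p27) was called lower in the B lineage, at 25.6 CPM against 119.0 CPM, and was not called in the T lineage, at 78.9 CPM against 118.6 CPM. The difference between lineages was not tested, and in the B lineage 228 of the 284 cells with 10 or more members were germinal centre B-like.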

How the data were processed

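Per the labels, nodes were processed with 10x Genomics 3' v3 chemistry, with a separate library for each mouse before pooling, at about 2000 cells per sample. The deposited matrix holds whole-number UMI counts per gene and barcode, made by the authors with cellranger 5.0.0, per the file headers, on mm10, per the submitters' processing notes. It lists 6978 to 9831 barcodes per library. Cells were kept with at least 300 genes and at most 10% mitochondrial UMIs, and gated in sequence on raw UMIs of marker genes, some of which are not reported here. Genes named in full were Mki67, Top2a, Cdk1, Ccnb1, Pcna, Mcm5 and Stmn1, plus the 6 other members with the largest ratio in each comparison, and the 8 other genes with the largest ratio in both lineages. Further genes, such as Kif23, were named after their values were seen. The members and lists were chosen with earlier results of these data known. Doublets were called with Scrublet (scanpy 1.11.5) and removed only as an alternative. No library could be assigned to a group, so planned tests between groups were not made. Intervals are exact 95% intervals for counting error. The calling rule was also run on simulated data, and the outcome is not given here. Other alternatives were TMM scaling (edgeR 4.0.16, R 4.3.3), median-ratio factors, stricter filters and thinned cells. Python 3.11.15, numpy 2.4.6, pandas 2.3.3, scipy 1.17.1 and matplotlib 3.10.9 were used.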

Additional observations from a re-analysis of the deposited data

Results flagged for a closer look

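The share of gamma-delta T-like cells with 3 or more members was 46.9% in library 3 (30 of 64 cells), against 32.7%, 32.1% and 32.9% in libraries 1, 2 and 4, a gap that is large beside the range of the 4 values. Chance alone flags about 1 in 20 groups of values by this criterion. The exact interval for library 3 ran from 34.3% to 59.8% and overlapped those of the other libraries. Median UMIs per cell were 5734 in library 3 and 5445, 5507 and 5498 in libraries 1, 2 and 4.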

How the results depend on the processing

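The median log2 ratio over libraries of the B over the T lineage share of cells with 3 or more members was -0.55. It was 0.29 with cells thinned to 1500 UMIs and 0.32 at 3000 UMIs, both reversed, although the libraries did not move as one: 1.06, 1.31, -0.48 and -0.89 in libraries 1 to 4 at 1500 UMIs and 0.53, 0.87, 0.10 and -0.18 at 3000, against -0.45, -0.41, -0.65 and -0.72 without thinning. It was -0.24 when 3 or more G2/M members were asked for (1.00, 1.43, -1.47 and -1.63 by library), -0.38 with 10 or more members (1.26, 1.53, -2.53 and -2.03), and -2.06 when germinal centre B-like and plasma-like cells were also left out. Leaving out 1 library at a time gave -0.65 to -0.45. Between the B and T lineages the count of members called was 0, and 0 without any 1 library, but 32 without germinal centre B-like and plasma-like cells. There the log2 ratios of Mki67 (-2.60), Top2a (-2.18), Cdk1 (-1.97), Ccnb1 (-2.07), Stmn1 (-1.79), Pclaf (-1.93), Cenpe (-1.77), Cdc20 (-1.38) and Cdca3 (-2.11) were reversed. The count for germinal centre B-like cells was 11 with thinned cells and 37 to 45 without 1 library. For regulatory T-like cells it was 17 with thinned cells and 46 to 48 without 1 library. Between CD8 and CD4 T-like cells it was 2 with thinned cells, 2 without cells holding any UMI of the other lineage, and 0 to 2 without 1 library. For counts of members with thinned cells, other filters or without 1 library, the share of all genes called is not given. Other genes called in the B lineage numbered 416, and 1188 with a minimum of 1 count, 1529 with 10 or more members, and 357 to 564 without 1 library. In the T lineage they numbered 885, and 1632 with 5 or more members, 1924 with 1 count, 2683 with 10 or more members, and 888 to 973 without 1 library. Of 788 values of single named genes under the alternatives, 763 kept their direction and call, 8 gained a call, 8 lost one and 9 reversed. Removing cells under a depth limit or thinning them leaves fewer genes with enough counts to judge; the other causes were not tested. The leave-out of germinal centre B-like and plasma-like cells and the threshold of 10 members were chosen after seeing the data. No paired analysis was possible because no replicate number of the labels is tied to a library; class ratios were taken within each library.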

Other observations

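The B lineage values of the libraries fell into 2 clusters. The share of B lineage cells with 10 or more members was 5.28% and 6.51% in libraries 1 and 2 and 0.505% and 0.628% in libraries 3 and 4, and the number of germinal centre B-like cells was 164 and 167 against 10 and 18. The shares in libraries 3 and 4 lay above those in libraries 1 and 2 in the T lineage (2.20%, 2.25%, 2.91% and 2.56% in libraries 1 to 4), in regulatory T-like cells (14.8%, 10.2%, 19.8% and 19.2%) and in gamma-delta T-like cells (2.04%, 0%, 12.5% and 8.22%), but not in CD8 T-like cells (1.85%, 2.21%, 2.33% and 2.15%). The labels do not say which libraries came from treated mice, so the clusters carry no group.

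Haemoglobin RNA (summed Hbb-bs, Hba-a1 and Hba-a2), which node lymphocytes are not known to make, stood at 187.1 CPM in B lineage cells with 10 or more members and at 898.2 CPM in the whole B lineage, and at 1312 CPM and 938.3 CPM in the T lineage. Within the T lineage cells with 10 or more members it stood at 3187 CPM in regulatory T-like and 2859.5 CPM in CD4 T-like cells, and at 40.0, 39.8 and 14.2 CPM in CD8 T-like, other T and gamma-delta T-like cells. Median depth was 15926 UMIs in B lineage and 18561.5 UMIs in T lineage cells with 10 or more members. In the whole lineages it was 3859.5 and 6274 UMIs. The share of cells with any haemoglobin UMI, which depends on depth, had another order. It was 70.8% in B lineage cells with 10 or more members and 42.1% in the whole B lineage, and 42.9% and 41.0% in the T lineage. In the T classes with 10 or more members it was 35.8% in regulatory T-like, 48.8% in CD4 T-like and 48.9% in CD8 T-like cells. In other T and gamma-delta T-like cells it was 40% and 26.7%. How the summed UMIs spread over single cells was not tested.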
